A study of Mus musculus with 12 samples.

Results

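Genes that differed in the same direction when amyloid came from a transgene and when it came from an injected peptide were collected from the mouse hippocampus. A gene was taken when it was at least 1.5-fold apart in both of 2 differences of log2 levels. The transgene difference was the 5xFAD level minus the mean of the NCSTN and MAPT levels. The injection difference was the mean of the levels with Aβ at 5 and 10 µM minus the level with scopolamine. The genes were thus chosen by these 2 differences, which are given below as a description. A gene also had to be marked well above background by the scanner software on the brighter arrays of each difference. Of 20886 genes measured, 297 met the rule, 217 of them higher in both differences and 80 lower in both. Another 222 genes went opposite ways by the same thresholds, 150 higher in 5xFAD and lower with Aβ, and 72 lower in 5xFAD and higher with Aβ. These 519 genes are described here.

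Expression was measured on one-colour Agilent mouse arrays, 12 in all, each carrying RNA pooled from 3 animals of 1 model, so that no spread between animals can be given and no test was possible. The 6 arrays of the differences were all hippocampus. The 5xFAD mice (C57BL/6, 6 months old) carry human APP with mutations of familial Alzheimer's disease, expressed in neurons from the Thy1 promoter. The NCSTN mice (C57BL/6, 10 months old) overexpress a mutated human nicastrin, a subunit of γ-secretase, and the MAPT mice (C57BL/6, 12 months old) overexpress wild-type human tau. The labels give C57BL/6 as the strain of all 3, and the methods name C57BL/6N as the control strain of the NCSTN and 5xFAD mice. The other hippocampal arrays were from male ICR mice of 7 weeks. Aggregated Aβ peptide at 5 or 10 µM was injected into the cerebral ventricles through holes drilled in the skull, and tissue was taken 14 days later. Scopolamine, a blocker of muscarinic acetylcholine receptors, was given intraperitoneally at 1 mg/kg, and tissue was taken 30 min later. Streptozotocin at 2.5 or 3 mg/kg was given by the same ventricular route as Aβ, also with tissue at 14 days, and entered neither difference. Arrays of normal control mice and of vehicle injections were not analysed here. In the first difference, the 5xFAD transgene, the NCSTN and MAPT transgenes of the reference arrays, and age therefore cannot be told apart. In the second, peptide, surgery, time after treatment, and scopolamine itself, given only to the mice of the reference array, cannot be told apart.

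Aβ is cleaved from the amyloid precursor protein by β- and γ-secretase and aggregates into plaques. Microglia and astrocytes gather around plaques and switch on genes for phagocytosis, lipid handling, complement, and antigen presentation. Fibroblasts of the meninges and of the walls of larger vessels make collagens and many small-molecule transporters, and genes of the interferon response are switched on by cytokine signals that many cell types can receive. Immediate early genes are transcribed in neurons within minutes of firing.

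Several genes of the interferon response were higher in both differences, and the promoters of 4 of them are shown because the letters of the interferon-stimulated response element (GAAANNGAA, either strand) stand in them. Each line gives the 160 bases before the start site, 5′ to 3′ on the strand of the gene, from RefSeq (GRCm38.p6), and capitals mark the element, where overlapping matches run together. The windows are chr19:34640729-34640888 on the plus strand for Ifit1 and chr19:34583369-34583528 on the plus strand for Ifit3. They are chr4:156200819-156200978 on the minus strand for Isg15 and chr5:120907526-120907685 on the minus strand for Oas1a.
Ifit1: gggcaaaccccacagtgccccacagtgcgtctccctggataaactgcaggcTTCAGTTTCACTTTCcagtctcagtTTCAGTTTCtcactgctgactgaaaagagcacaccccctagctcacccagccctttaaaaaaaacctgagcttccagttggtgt
Ifit3: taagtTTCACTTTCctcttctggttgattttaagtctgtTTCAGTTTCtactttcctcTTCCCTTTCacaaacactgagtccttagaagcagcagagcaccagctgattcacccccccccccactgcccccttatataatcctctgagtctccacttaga
Isg15: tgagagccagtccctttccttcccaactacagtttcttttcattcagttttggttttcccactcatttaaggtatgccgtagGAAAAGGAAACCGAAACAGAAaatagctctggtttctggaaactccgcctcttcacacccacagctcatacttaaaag
Oas1a: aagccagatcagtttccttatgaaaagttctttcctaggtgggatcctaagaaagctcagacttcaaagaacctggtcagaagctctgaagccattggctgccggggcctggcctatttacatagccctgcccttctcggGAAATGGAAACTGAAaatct

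Ifit1, Ifit3, and Isg15 had 3 matches each and Oas1a had 2. Oasl2 and Xaf1, also higher in both, had no match in the promoter listed for each, and no promoter was listed for Ifi27l2a and Oas2. Promoters of 300 bases (250 before and 50 after the start) were listed for 160 of the 217 genes higher in both, 187 promoters in all. The element stood in 12.3% of them, against 7.96% of the 20186 promoters of all measured genes. The share was 5.48% for genes lower in both, 15.5% for genes higher in 5xFAD and lower with Aβ, and 15.6% for genes of the reverse kind, so the element was not particular to genes higher in both. The letters of AP-1 (TGANTCA) stood in 10.7% of promoters of genes higher in both and in 7.04% of all, and those of NF-κB (GGGACTTTC or GGGATTTCC) in 2.14% and 0.763%. The gamma-activated site (TTCNNNGAA) stood in 6.42% and 7.86%, the cAMP response element (TGACGTCA) in 1.07% and 2.34%, and the TATA box (TATAAA) in 11.8% and 12.0%.

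Before any comparison, the sex-linked genes were read as a check of the labels. Xist, transcribed from the inactive X chromosome, was well above background on the NCSTN, MAPT, and 5xFAD arrays alone, where it was at least 35.2-fold higher than on the other 9 arrays. The Y-linked genes Ddx3y and Eif2s3y were at least 175-fold and 103-fold lower on those 3 arrays. Those 3 arrays thus had the pattern of female mice, whereas the methods call the mice of all 3 models male. All 3 arrays of the transgene difference were alike in these genes, and so were all 3 of the injection difference, which had the male pattern. Sex as read from these genes therefore differed between the 2 differences but not within either.

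Between 63.5% and 75.9% of the probes were well above background on an array, no spot was saturated, and spots of 1 probe repeated 10 times on an array had a median SD of 0.0454 to 0.0593 on the log2 scale. That SD is technical and holds no difference between animals. Levels are given as log2 of the scanner's processed signal after quantile normalization over the 12 arrays. Where no array of the dimmer side was well above background, a difference is given as a lower limit (at least N-fold), taken against the dimmest signal still called well above background on those arrays.

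The transgene difference held 2595 genes that were higher (12.4% of all genes) and 2167 that were lower (10.4%), and the injection difference held 695 (3.33%) and 642 (3.07%). The 217 genes higher in both, 1.04% of all genes, were 8.36% of the first higher list and 31.2% of the second. The 80 genes lower in both, 0.383% of all, were 3.69% and 12.5% of the lower lists. The 150 genes higher in 5xFAD and lower with Aβ (0.718%) were 5.78% of the genes higher in 5xFAD and 23.4% of those lower with Aβ, and the 72 of the reverse kind (0.345%) were 3.32% and 10.4%. These counts follow from the rule and are given as a description.

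**Figure D1:**
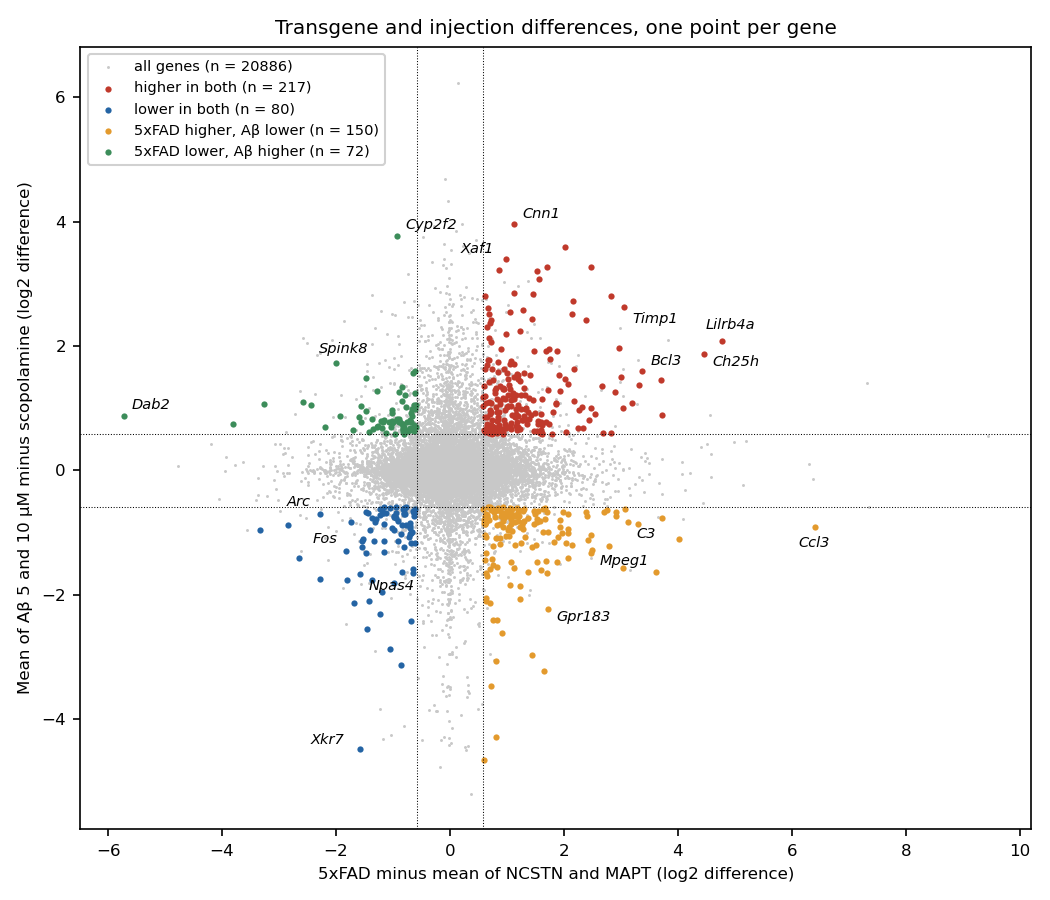
Each point is 1 gene, with the transgene difference on the x axis and the injection difference on the y axis, both on the log2 scale, and dotted lines at 1.5-fold. Coloured points are the 217 genes higher in both, the 80 lower in both, and the 150 and 72 that went opposite ways, and 77 of the 217 are at least 2-fold apart on both axes.

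Among the 217 genes higher in both, the median transgene difference was 1.11 and the median injection difference 1.07 on the log2 scale, with highest values of 4.77 and 3.96. All 4 single-array gaps (5xFAD against NCSTN and against MAPT, and each Aβ dose against scopolamine) had the called direction for 211 of them, and all 4 were at least 1.5-fold for 127. Both differences were at least 2-fold for 77 genes, and 187 genes were well above background on all 6 arrays. Just inside the threshold lay Fhod1 (differences of 1.62 and 0.59) and Rab19 (0.59 and 1.18), and just outside it lay the interferon-induced Gbp2 (1.19 and 0.58). Of the 217 genes, 12 had symbols of predicted genes or olfactory-type receptors and were not ranked for naming.

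Ranked by the smallest of the 4 gaps, the first genes higher in both had mixed roles. H60b, a stress-induced ligand of the NKG2D receptor of natural killer cells, had levels of 1.77 on NCSTN and 1.84 on MAPT, neither well above background, and 4.28 on 5xFAD. It was at 1.93 with scopolamine, again not well above background, and at 4.90 and 5.52 with 5 and 10 µM Aβ, which makes it at least 1.82-fold higher in 5xFAD and at least 2.19-fold higher with Aβ. H60b was thus well above background only on the 5xFAD array and both Aβ arrays of the 6, and on those arrays the rule itself required such a signal. Mill2, another relative of MHC class I, was at 4.24 on NCSTN, 4.01 on MAPT, and 5.83 on 5xFAD, and at 4.67 and 5.78 with Aβ against a level not well above background with scopolamine, 3.25-fold and at least 2.22-fold higher.

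Timp1, an inhibitor of matrix metalloproteinases that reactive astrocytes release, was at 7.09 on NCSTN, 4.07 on MAPT, and 8.63 on 5xFAD, and at 4.80 with scopolamine and 7.34 and 7.52 with Aβ (8.28-fold and 6.20-fold). Its NCSTN and MAPT levels lay 3.02 apart on the log2 scale, about as far as the transgene difference itself. Serpina1c, of the α1-antitrypsin genes, was 5.22-fold and 5.34-fold higher, with levels of 4.34, 4.83, and 6.97 on NCSTN, MAPT, and 5xFAD and of 8.47, 11.27, and 10.50 with scopolamine and 5 and 10 µM Aβ. The genes Serpina1a, Serpina1d, and Serpina1e were also higher in both, but these copies are nearly identical and a probe may read several of them. Of 60 serpin genes measured, 8 were higher in both and 2, Serpina3m and Serpinb6d, lower in both, a family chosen after its values were seen.

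Actg2, the γ-actin of smooth muscle, was not well above background on NCSTN and MAPT, was at 4.31 on 5xFAD, and went from 4.51 with scopolamine to 7.93 and 8.27 with Aβ (at least 1.86-fold and 12.1-fold higher). Mfap5, a protein of elastic microfibrils, had levels of 4.46, 3.76, and 6.27 on NCSTN, MAPT, and 5xFAD and of 4.71, 7.20, and 7.67 with scopolamine and the Aβ doses (4.47-fold and 6.63-fold). Crispld2, a secreted protein, was 3.21-fold and 3.77-fold higher, and Emp3, an epithelial membrane protein, was 3.68-fold and 3.78-fold higher. Insrr, a receptor tyrosine kinase related to the insulin receptor, was 4.43-fold and 5.73-fold higher.

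Also among the first 14 were Cytip, Bcl3, and Ch25h. Cytip, which binds cytohesins in leukocytes, was well above background only on the 5xFAD and Aβ arrays of the 6, at 4.78 on 5xFAD and at 4.72 and 5.36 with Aβ (at least 2.57-fold and at least 1.95-fold higher). As for H60b, the rule itself required such a signal on those arrays. Bcl3, a nuclear relative of the NF-κB inhibitors, was at 6.88 on NCSTN, 5.94 on MAPT, and 9.78 on 5xFAD, and at 5.77 with scopolamine and 7.32 and 7.42 with Aβ (10.3-fold and 3.02-fold). Ch25h, the enzyme that makes 25-hydroxycholesterol, was at 5.44, 5.11, and 9.74 on the transgenic arrays and at 5.23, 6.87, and 7.34 with scopolamine and the Aβ doses, 22.1-fold and 3.68-fold higher.

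**Figure D2:**
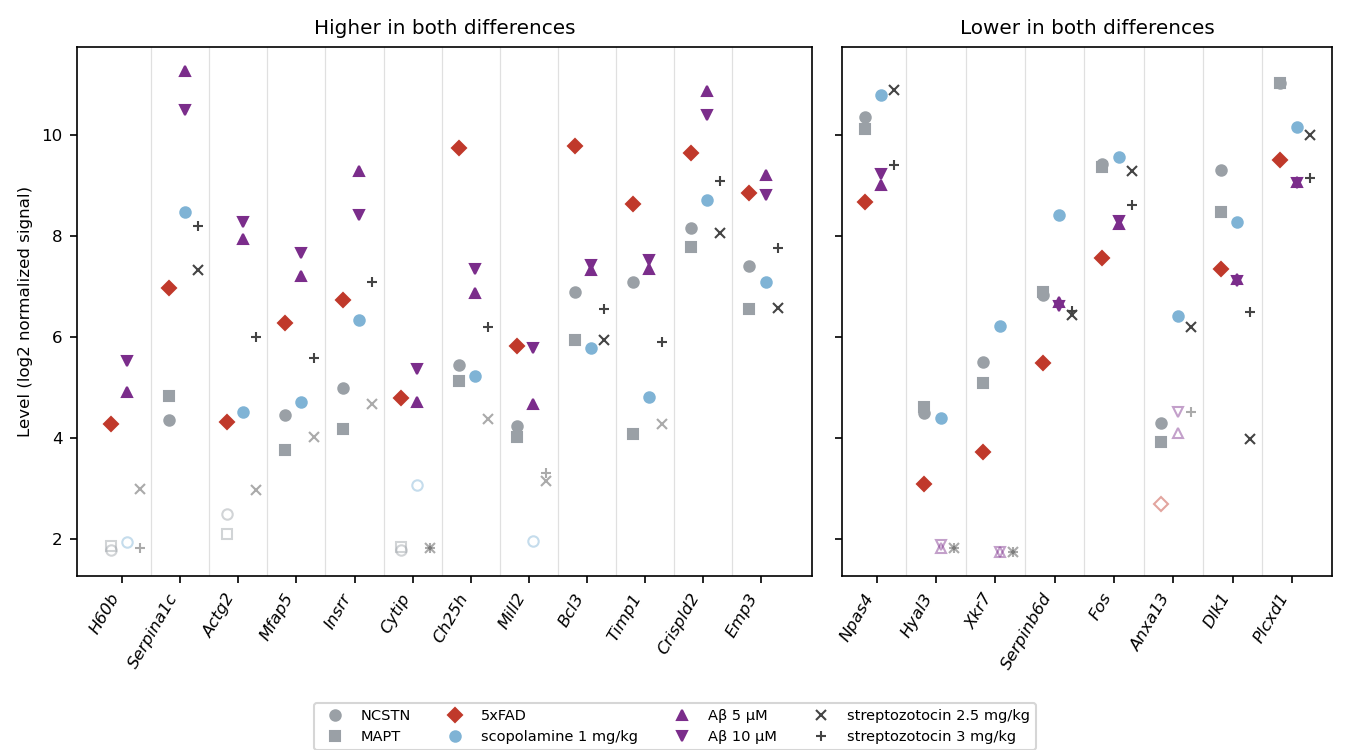
Levels (log2 normalized signal, y axis) on the 8 hippocampal arrays for 12 of the 14 genes ranked first among those higher in both and the 8 ranked first among those lower in both; each symbol is 1 array, and open symbols were not well above background. In each gene the red diamond (5xFAD) lies beyond both grey symbols (NCSTN and MAPT) and both purple triangles (Aβ) lie beyond the blue circle (scopolamine), which is how the genes were ranked.

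Gene lists of brain cell types and pathways, 29 beside the sex-linked genes, were counted in both differences. Over all genes, 1.04% were higher in both and 0.383% lower in both. Markers of meningeal and perivascular fibroblasts gave the most genes higher in both, 14 of 33 measured, and none lower in both. Their median difference was 0.48 in the transgene difference and 1.77 in the injection difference, beside medians of −0.05 and −0.01 over all genes. In the transgene difference 14 of the 33 were higher and none lower, and in the injection difference 31 were higher and none lower. The transporters Slc6a12 and Slc6a13, which carry GABA and betaine, were 2.95-fold and 1.66-fold higher in 5xFAD and 8.48-fold and 5.33-fold higher with Aβ. Slc6a12 was at 6.44, 5.81, and 7.69 on NCSTN, MAPT, and 5xFAD and at 7.57, 11.13, and 10.17 with scopolamine and the Aβ doses. Aldh1a2, which makes retinoic acid, was 2.42-fold and 5.99-fold higher, and Crabp2, which binds it, 1.61-fold and 4.39-fold.

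Col6a1 had the largest transgene difference of these markers, with levels of 10.53 on NCSTN, 9.53 on MAPT, and 13.04 on 5xFAD (8.04-fold), and it went from 9.10 with scopolamine to 10.94 and 10.27 with Aβ (2.83-fold). Its partner chain Col6a2 was 2.19-fold and 3.27-fold higher. Col3a1 was 6.96-fold higher with Aβ, at 10.12 and 10.00 against 7.26, but its 5xFAD level of 7.41 lay below the NCSTN level of 7.48 and above the MAPT level of 6.13, so that without the MAPT array the transgene difference was −0.07. Slc22a2, Slc13a4, Slc13a3, Fmod, Islr, Pcolce, and Foxc1 were the others, between 1.58-fold and 2.75-fold higher in 5xFAD and between 1.60-fold and 7.11-fold higher with Aβ. Of 43 collagen chains measured, 8 were higher in both, none were lower in both, and Col2a1 and Col23a1 went opposite ways, a family chosen after its values were seen; beside the markers above these were Col4a5, Col4a6, Col5a1, Col9a2, and Col18a1, which include chains of basement membrane.

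All 33 fibroblast markers were well above background on the 3 transgenic arrays and at least 32 on the Aβ and scopolamine arrays. Their summed signal was 151616 on NCSTN, 135324 on MAPT, and 197332 on 5xFAD, and 174350 with scopolamine, 355587 with 5 µM Aβ, and 315710 with 10 µM. Among markers of pericytes and smooth muscle, 8 of 12 were higher and 1 lower with Aβ, 1 was higher and 2 lower in 5xFAD, and Cnn1, a calponin of smooth muscle, was higher in both (2.18-fold and 15.6-fold), with levels of 6.76, 6.42, and 7.71 on the transgenic arrays and of 6.64, 10.41, and 10.80 on the others. The summed signal of those 12 markers was 17520 with scopolamine and 51536 and 46382 with Aβ, and between 15629 and 19765 on the transgenic arrays. The part that more fibroblasts or vessel wall in the dissected tissue had in the genes higher in both was not tested. In bulk tissue, more cells of a type and more RNA per cell cannot be told apart.

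Reactive astrocyte genes came next, 9 of 35 higher in both and none lower in both, with median differences of 1.08 and 0.44. Vim, an intermediate filament, was at 11.85, 11.32, and 12.93 on NCSTN, MAPT, and 5xFAD and at 11.15, 12.35, and 11.97 with scopolamine and the Aβ doses (2.53-fold and 2.01-fold). Osmr, the receptor of oncostatin M, was 6.45-fold higher in 5xFAD and 1.53-fold higher with Aβ, and Aspg, an asparaginase, 13.3-fold and 1.86-fold. Lcn2, a siderophore-binding lipocalin, was 2.09-fold and 3.38-fold higher, and Emp1, Fbln5, and Srgn between 1.52-fold and 2.98-fold. Markers of resting astrocytes had medians of 0.23 and 0.04, with none of 11 in either shared group.

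In the complement list 4 of 25 genes were higher in both and 2 went opposite ways. C4b, of the classical pathway, was at 12.84, 12.31, and 15.06 on the transgenic arrays and at 11.81, 12.87, and 12.77 with scopolamine and the Aβ doses (5.59-fold and 2.01-fold). The regulator Serping1, the inhibitor of C1, was 4.19-fold and 2.62-fold higher. Cfb, factor B, was 1.51-fold and 2.56-fold higher, but the first value rests on the MAPT array, where Cfb was not well above background. The levels on 5xFAD (4.38) and NCSTN (4.45) did not differ in that direction, and the transgene difference without MAPT was −0.08. C3, the central component, was at 9.18, 9.14, and 12.29 on the transgenic arrays but at 9.07 with scopolamine and at 8.33 and 8.16 with Aβ (8.77-fold higher and 1.77-fold lower), and C3ar1, its receptor, was 7.57-fold higher in 5xFAD and at least 1.35-fold lower with Aβ.

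Of 46 interferon response genes, 8 were higher in both, none lower in both, and 3 went opposite ways, with list medians of 0.72 and 0.22. Ifit3, an RNA-binding antiviral protein, was at 9.13, 9.11, and 10.25 on NCSTN, MAPT, and 5xFAD and at 6.48, 9.94, and 8.74 with scopolamine and the Aβ doses (2.19-fold and 7.26-fold). Its relative Ifit1 was 1.55-fold and 2.11-fold higher, and Isg15, a ubiquitin-like modifier, 1.69-fold and 1.55-fold. The oligoadenylate synthetase genes Oas1a (3.50-fold and 1.92-fold), Oas2 (1.61-fold and at least 2.68-fold), and Oasl2 (2.91-fold and 1.73-fold) were also members, as was Ifi27l2a (3.33-fold and 1.68-fold). Xaf1 was 1.99-fold and 10.5-fold higher on the mean of its 2 probes, but its brighter probe alone gave an injection difference of −0.32, so its probes disagree. Trim30a and Gbp4 were higher in 5xFAD and lower with Aβ, and Samd9l was the reverse.

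The medians of microglial genes stood apart between the 2 differences. Of 24 genes of disease-associated microglia, 19 were higher in 5xFAD and 4 with Aβ, and 3 were higher in both. Over all genes these shares were 12.4%, 3.33%, and 1.04%. The median was 1.84 in the transgene difference and 0.06 in the injection difference. Lilrb4a, an inhibitory receptor, was at 3.94, 3.76, and 8.63 on the transgenic arrays and at 3.63, 4.66, and 6.76 with scopolamine and 5 and 10 µM Aβ (27.4-fold and 4.21-fold). Its scopolamine level, a mean of 2 probes, lay below the dimmest signal well above background on that array (4.08), and the brighter probe alone gave an injection difference of 0.96. Igf1, a growth factor, was 4.09-fold and 1.54-fold higher. The third was Ch25h. The 15 homeostatic microglia markers had medians of 0.98 and −0.04, and the 26 lysosomal genes medians of 0.97 and −0.03, but both injection medians were above 0 (0.09 and 0.05) with the deposited matrix. None of either list was higher in both, which for lists of this size is near the 1.04% of all genes. Fcrls, a microglial Fc receptor-like gene, and Lipa, the lysosomal acid lipase, were higher in 5xFAD and lower with Aβ. They were 1 gene of each list, beside 0.718% of all genes. The summed signal of the homeostatic markers was 70677 on 5xFAD against 33387 and 33352 on NCSTN and MAPT, and 29357 and 32227 with Aβ against 33185 with scopolamine.

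Of 18 MHC class I genes 12 were higher and 1 lower in 5xFAD, and none differed by 1.5-fold with Aβ. Over all genes 12.4% were higher and 10.4% lower in 5xFAD, and 3.33% were higher and 3.07% lower with Aβ. For a list of 18 genes, none with Aβ is thus near the share of all genes. Of 11 MHC class II genes 6 were higher and none lower in 5xFAD, and 3 were higher and 2 lower with Aβ. Among these, H2-Ab1 was higher in both (1.66-fold and 1.64-fold), while H2-Oa and H2-DMb1, which act in peptide loading, went opposite ways. The class II median was 0.73 in the transgene difference and −0.17 in the injection difference, the latter turning to 0.03 with normexp background correction and 0.29 with the deposited matrix. Of 29 chemokines and cytokines 19 were higher and 1 lower in 5xFAD, and 4 were higher and 2 lower with Aβ. The monocyte attractants Ccl2 and Ccl12 were 4.07-fold and 6.33-fold higher in 5xFAD and 2.78-fold and 2.58-fold higher with Aβ. Ccl2 was at 4.61, 4.94, and 6.80 on the transgenic arrays and at 4.93, 6.18, and 6.64 with scopolamine and the Aβ doses. Ccl3 was 84.8-fold higher in 5xFAD, at 11.14 against 4.77 and 4.69, and at least 1.84-fold lower with Aβ than with scopolamine.

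Among genes of amyloid precursor processing only Bace2 of 14 was a member, 1.75-fold higher in 5xFAD and 2.02-fold higher with Aβ; it encodes a protease related to β-secretase. Its levels were 7.83, 7.49, and 8.46 on NCSTN, MAPT, and 5xFAD and 7.60, 8.74, and 8.49 with scopolamine and the Aβ doses. Vwf, von Willebrand factor of endothelium, was 1.58-fold and 4.92-fold higher, the only one of 21 endothelial markers higher in both. Cbr2, a marker of perivascular macrophages, was 1.83-fold and 2.10-fold higher. It alone was higher in both among 17 genes measured of perivascular macrophages and blood leukocytes. Of those 17, 2 were higher and 4 lower in 5xFAD, 6 were higher and none lower with Aβ, and Plac8 went opposite ways. Plin4, a lipid droplet protein that glucocorticoids raise, was 5.83-fold and 1.87-fold higher, the only one of 19 glucocorticoid-responsive genes higher in both.

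**Figure D3:**
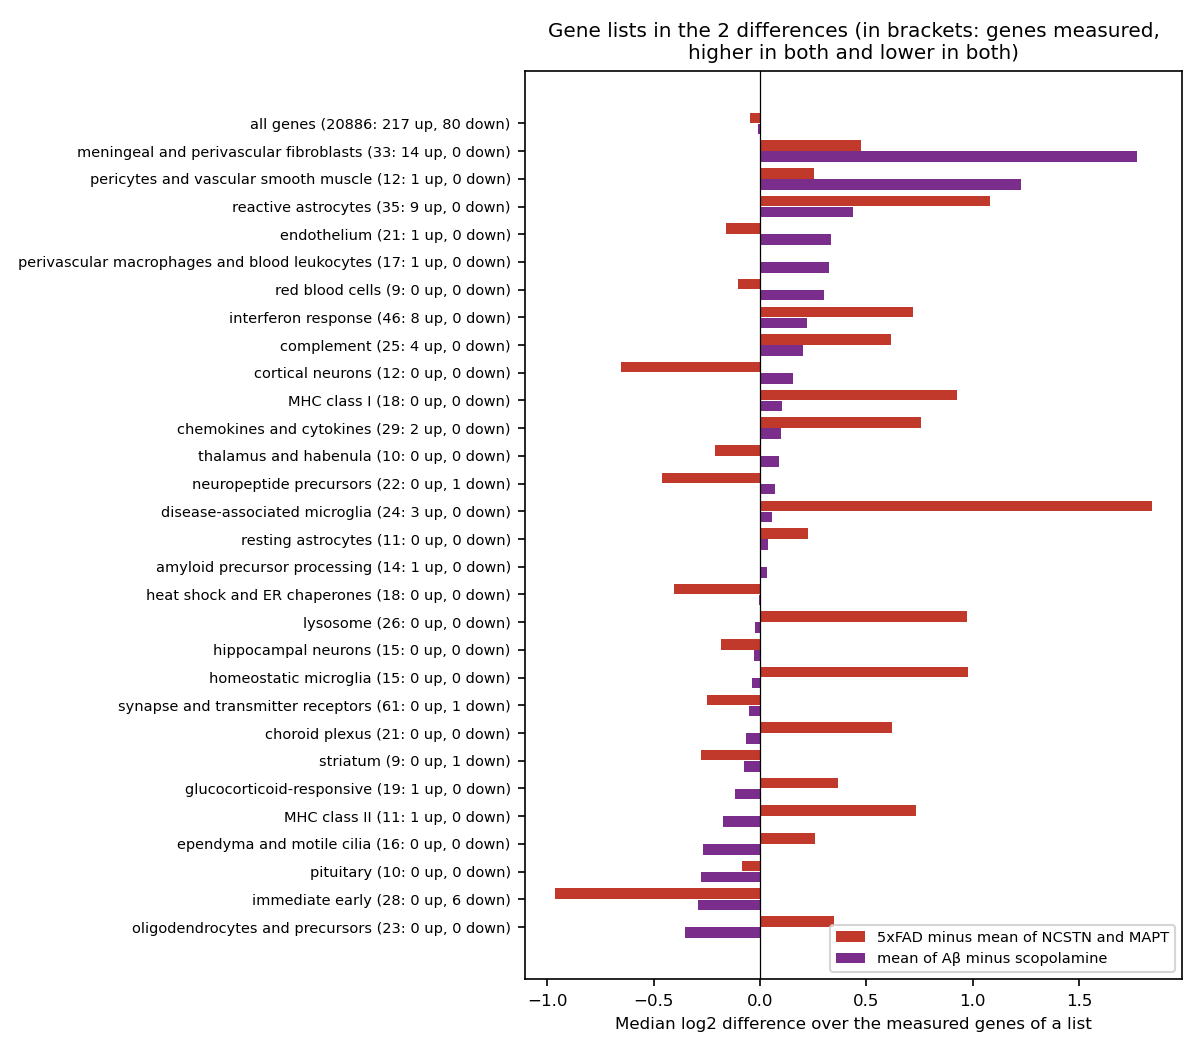
Bars give the median log2 difference (x axis) over the measured genes of each list, red for the transgene difference and purple for the injection difference, and brackets give how many genes were measured, higher in both, and lower in both. Fibroblast markers lead in the injection difference (1.77) and disease-associated microglia in the transgene difference (1.84), where their injection median is 0.06.

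The 80 genes lower in both had quartiles of −1.37 and −0.80 in the transgene difference and of −1.30 and −0.70 in the injection difference, and 36 of them had all 4 gaps of at least 1.5-fold. Just inside the threshold lay Grik3 (−0.77 and −0.59). Immediate early genes were the list with the most members, 6 of 28, beside 0.383% of all genes, and their list medians were −0.96 and −0.29. The medians were −0.57 and −0.13 with normexp background correction and −0.90 and −0.04 with the deposited matrix. Of the 28 genes, 19 were lower and 3 higher in 5xFAD, beside 10.4% and 12.4% of all genes. With Aβ 7 were lower and none higher, beside 3.07% and 3.33%. Npas4, a transcription factor induced by calcium in neurons, was at 10.36 on NCSTN, 10.13 on MAPT, and 8.67 on 5xFAD, and at 10.79 with scopolamine and 9.02 and 9.23 with Aβ, 2.98-fold and 3.17-fold lower. Fos was 3.56-fold and 2.46-fold lower, with levels of 9.43, 9.37, and 7.57 on the transgenic arrays and of 9.57, 8.24, and 8.30 with scopolamine and the Aβ doses. Arc, which acts at synapses, was the brightest of them, at 13.70, 13.71, and 11.42 and at 13.37, 12.63, and 12.71 (4.86-fold and 1.63-fold lower). Egr2 and Fosb were between 1.61-fold and 1.98-fold lower in each difference. Dusp5 was 2.34-fold lower in 5xFAD, and with Aβ it was at 4.63 at 5 µM and not well above background at 10 µM, against 5.23 with scopolamine.

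The streptozotocin arrays did not stand together for Npas4, Fos, and Arc. With the lower dose Npas4, Fos, and Arc were at 10.90, 9.29, and 14.24, and with the higher dose at 9.40, 8.62, and 13.04. The scopolamine array was taken 30 min after treatment and the Aβ arrays 14 days after. The parts of that time, of scopolamine itself, of surgery, and of the peptide in the difference cannot be told apart.

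The other genes ranked first among those lower in both were of mixed roles. Xkr7, of the XK family of membrane proteins, was at 5.49, 5.08, and 3.71 on NCSTN, MAPT, and 5xFAD and at 6.20 with scopolamine, and it was not well above background on either Aβ array (2.98-fold and at least 3.87-fold lower). Hyal3, of the hyaluronidase family, was 2.74-fold lower in 5xFAD and at least 1.10-fold lower with Aβ. Anxa13, an annexin, was at least 2.69-fold lower in 5xFAD, and with Aβ it was at least 4.16-fold lower. Serpinb6d was at 6.82, 6.89, and 5.49 on the transgenic arrays and at 8.42, 6.69, and 6.61 with scopolamine and the Aβ doses (2.58-fold and 3.40-fold lower). Xkr7 and Hyal3 were also not well above background on either streptozotocin array, and Serpinb6d was at 6.43 and 6.52 there, so that for these 3 genes the scopolamine array was the one that stood apart in the ICR mice.

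Dlk1, a membrane protein with EGF-like repeats, was 2.92-fold and 2.20-fold lower, but on the streptozotocin arrays it was lower still, at 3.98 and 6.49 against 7.15 and 7.11 with Aβ. Plcxd1, of the phospholipase C family, was at 11.04, 11.03, and 9.51 on the transgenic arrays and at 10.16, 9.06, and 9.06 with scopolamine and the Aβ doses (2.87-fold and 2.14-fold lower). Trh, the precursor of thyrotropin-releasing hormone, was 3.22-fold and 4.38-fold lower. It was at 7.25 with scopolamine and 5.28 with 5 µM Aβ and was not well above background with 10 µM, so that the second value includes a level at background. Its MAPT level of 6.18 lay below the 5xFAD level of 6.76, and only the NCSTN level of 10.72 lay above it. Without the NCSTN array the transgene difference of Trh was 0.58. Grik3, a kainate receptor subunit, was 1.70-fold and 1.51-fold lower, but with the deposited matrix the injection difference turned to 1.52 and with its brightest probe alone it was −0.04. Grik3 was the only member among 61 genes of synapses and transmitter receptors.

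Among the 150 genes higher in 5xFAD and lower with Aβ, the first by rank was Gpr183, a receptor for oxysterols on immune cells. It was at 5.39, 5.26, and 7.04 on NCSTN, MAPT, and 5xFAD and at 7.31, 4.93, and 5.24 with scopolamine and the Aβ doses, 3.28-fold higher and 4.67-fold lower. H2-Oa was at 5.95, 5.78, and 8.36 on the transgenic arrays and at 4.53 with scopolamine, and it was not well above background with Aβ (5.66-fold higher and at least 1.21-fold lower). Slc37a2, a sugar-phosphate transporter of macrophages, was 2.85-fold higher and 2.29-fold lower. Skint11 was well above background on 5xFAD but not on NCSTN or MAPT, and it was at least 1.43-fold lower with Aβ. Bcas1os2, a transcript antisense to another gene, was 3.26-fold higher, with an NCSTN level not well above background, and at least 3.10-fold lower, and H2al2a, a histone variant, at least 1.38-fold higher and at least 1.73-fold lower. H2-DMb1 was at 7.78 with scopolamine and at 4.52 and 7.84 with 5 and 10 µM Aβ, so its lower mean rested on the 5 µM array and without it the injection difference was 0.06. Ccl19 (1.69-fold higher and 2.86-fold lower), Sgk1 (2.28-fold and 1.59-fold), and Steap1 (2.07-fold and 1.61-fold) were the other list genes of this kind. Just outside the threshold lay Ctse, cathepsin E, with differences of 7.36 and −0.58.

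The 72 genes lower in 5xFAD and higher with Aβ included 2 of the 21 endothelial markers and, of 15 markers of hippocampal neurons, only Spink8. Cldn5, the claudin of the tight junctions of brain endothelium, was at 12.47, 12.53, and 11.48 on NCSTN, MAPT, and 5xFAD and at 11.43, 12.44, and 12.39 with scopolamine and the Aβ doses (2.03-fold lower and 1.97-fold higher). Esam, an adhesion molecule of endothelium, was 1.73-fold lower and 1.57-fold higher. Of the 21 endothelial markers, 7 were lower and 2 higher in 5xFAD, and 7 were higher and none lower with Aβ. Dab2, an endocytic adaptor, was at 7.72 on NCSTN and 7.46 on MAPT and not well above background on 5xFAD, at least 32.5-fold lower, and it was 1.84-fold higher with Aβ. Spink8, a protease inhibitor of hippocampal pyramidal cells, was at 12.10, 12.51, and 10.30 and at 10.72, 12.26, and 12.64 (4.01-fold lower and 3.30-fold higher), and Ccn2, a matricellular protein, was 2.77-fold lower and 2.79-fold higher. Il13ra2, a receptor that binds interleukin-13, was 5.41-fold lower and 2.07-fold higher, and Stk32b, a protein kinase, 2.24-fold lower and at least 1.76-fold higher. The chemokine Cxcl12, Plac8, and Rgs16 were between 1.51-fold and 1.78-fold apart in each difference, although the mean levels of Plac8 with scopolamine (2.93) and 10 µM Aβ (3.28) lay below the dimmest signals well above background on those arrays.

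The streptozotocin arrays, which the rule did not use, were set beside the scopolamine array that it did use. Both Aβ arrays were above all 3 other ICR arrays for 189 of the 217 genes higher in both (87.1%, and 9.12% of all genes), a count that shares the Aβ and scopolamine arrays with the rule. Their median level relative to scopolamine was 1.15 and 0.98 with 5 and 10 µM Aβ and −0.42 and 0.26 with 2.5 and 3 mg/kg streptozotocin. In the mean of both streptozotocin arrays 16 of the 217 were higher than with scopolamine and 32 lower, beside 2.23% and 5.66% of all genes, but with the deposited matrix the balance turned, with 60 higher and 13 lower. For the genes lower with Aβ the picture differed. Of the 80 lower in both, 42 (52.5%) were also lower in the mean of the streptozotocin arrays than with scopolamine, and of the 150 higher in 5xFAD and lower with Aβ, 98 (65.3%) were. In many of these genes the scopolamine array was thus the high one among the ICR arrays, a comparison that again shares the scopolamine array. Both Aβ arrays were, however, below all 3 other ICR arrays for 31 of the 80 genes (38.75%) and for 29 of the 150 (19.3%). That count shares the Aβ and scopolamine arrays with the rule, and its share over all genes is not given. The streptozotocin arrays also held far less signal of choroid plexus markers, summing to 16749 and 19447 with 2.5 and 3 mg/kg against 329217 with scopolamine and 320112 and 348137 with Aβ. At 3 mg/kg 18 of these 21 markers were still well above background, and at 2.5 mg/kg 17 were. The 16 ependymal markers summed to 5588 and 5790 with streptozotocin, 16601 with scopolamine, and 13696 and 13415 with Aβ. The part of these cell types in comparisons with streptozotocin was not tested.

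**Figure D4:**
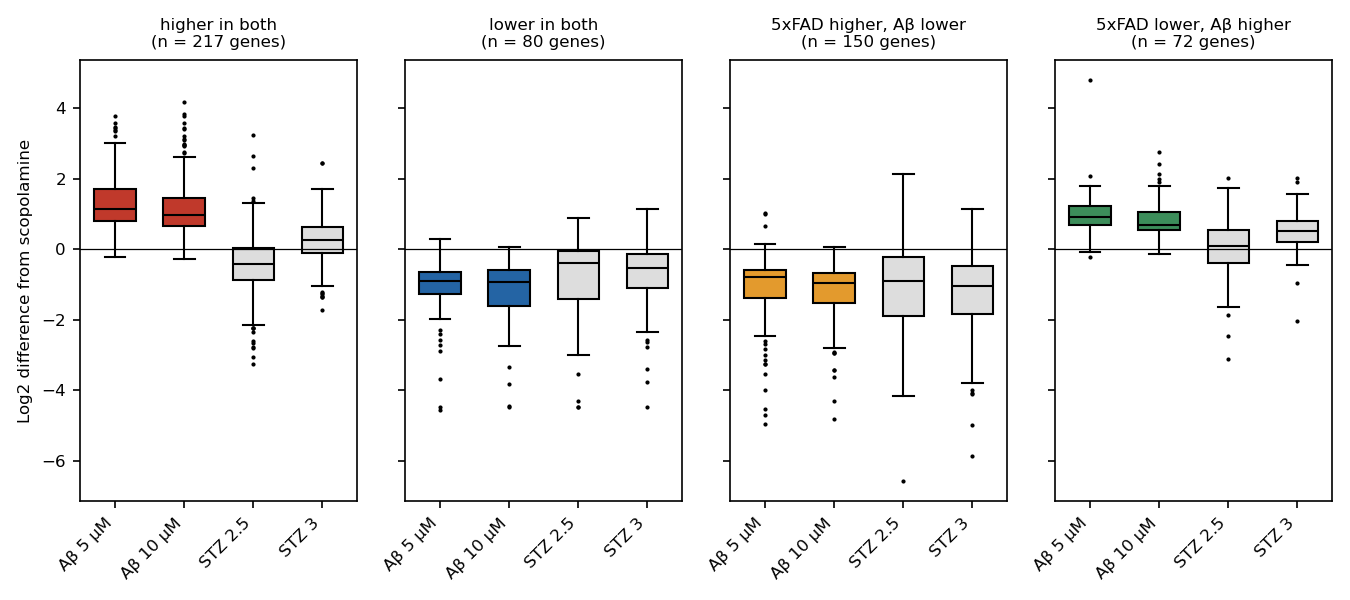
Boxes give the log2 difference from scopolamine (y axis) over the genes of each kind on the arrays of Aβ (5 and 10 µM) and of streptozotocin (STZ, 2.5 and 3 mg/kg), with the median, the quartiles, whiskers to 1.5 times the box height, and points beyond. For genes higher in both, the Aβ medians are 1.15 and 0.98 and the streptozotocin medians −0.42 and 0.26; for genes higher in 5xFAD and lower with Aβ, all 4 medians are below 0.

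In the gap between the streptozotocin doses, which shares no array with either difference, 99 of the 217 genes higher in both (45.6%) were at least 1.5-fold higher at 3 than at 2.5 mg/kg and 6 were lower (2.76%), beside 4.17% and 2.56% of all genes. The median gap was 0.59 on the log2 scale, and over all genes it was 0.00. Fewer genes were higher at 3 mg/kg with normexp background correction, 47 (21.7%, median gap 0.27, beside 1.42% of all genes), and with the deposited matrix, 60 (27.6%, 0.30, beside 2.56%). The levels of Slc6a12 were 6.37 and 8.28 with the lower and the higher dose. Slc22a2, an organic cation transporter, was not well above background with the lower dose and had a level of 6.32 with the higher. The same markers moved here. The summed signal of the fibroblast markers was 63668 with the lower and 188112 with the higher dose, with 28 and 31 of the 33 well above background, and that of the pericyte and smooth muscle markers was 14800 and 20646. When the genes of the fibroblast, pericyte, and endothelial lists were left out, 84 of 201 genes (41.8%) were higher at 3 mg/kg, against 4.02% of the other genes. Further genes of those cell types may be among the 201, and their part was not tested.

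The other kinds had smaller shares of genes higher at 3 mg/kg streptozotocin, beside 4.17% of all genes higher and 2.56% lower. Of the 80 genes lower in both, 14 were higher (17.5%) and 15 lower (18.75%) at 3 mg/kg. Of the 150 higher in 5xFAD and lower with Aβ, 15 were higher (10%) and 22 lower (14.7%). Of the 72 lower in 5xFAD and higher with Aβ, 19 (26.4%) were higher and 2 lower (2.78%). Between NCSTN and MAPT, whose mean the transgene difference used, 36 of the 217 genes higher in both (16.6%) were higher on NCSTN and 5 on MAPT, beside 3.76% and 3.53% of all genes. Between the Aβ doses 26 were higher and 45 lower at 10 than at 5 µM, beside 2.91% and 4.29%.

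**Figure D5:**
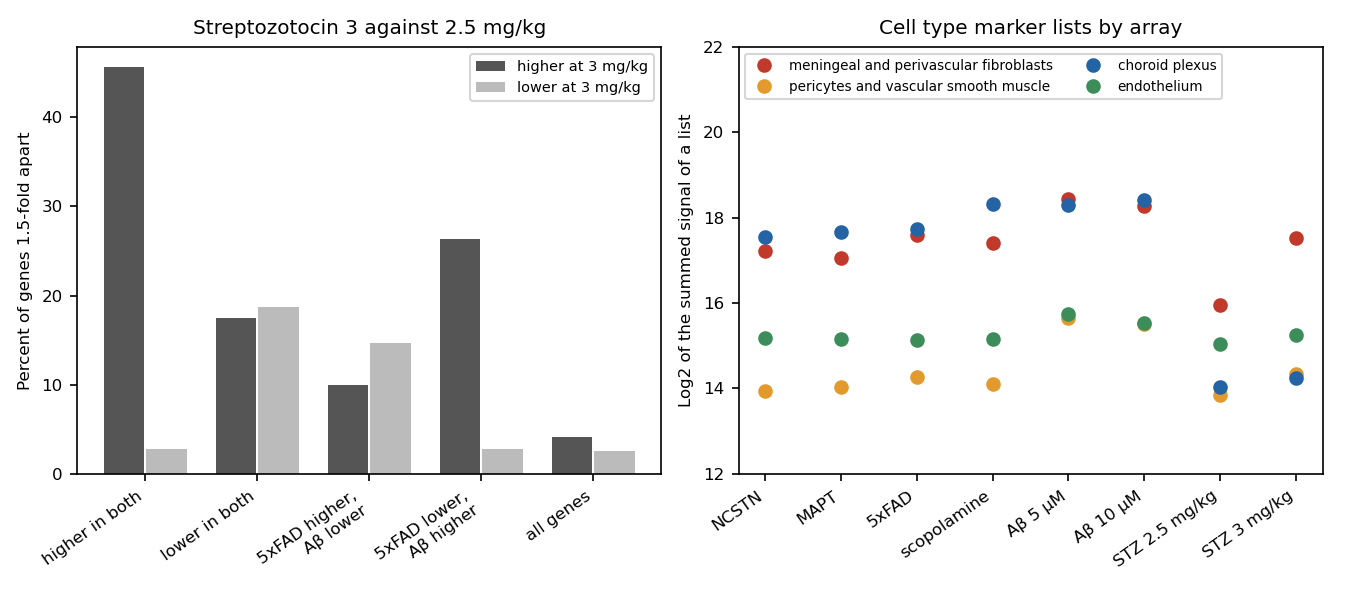
Left, percent of genes at least 1.5-fold higher (dark) or lower (light) at 3 than at 2.5 mg/kg streptozotocin, for each kind of gene and for all genes; right, log2 of the summed signal of 4 lists of cell type markers on each hippocampal array. Of the genes higher in both 45.6% were higher at 3 mg/kg, against 4.17% of all genes (21.7% with normexp and 27.6% with the deposited matrix), and the fibroblast marker sum was 63668 at 2.5 and 188112 at 3 mg/kg.

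Prefrontal cortex of old C57BL/6 mice (17 and 22 months) was set against that of young mice (1.5 and 4 months) as a second contrast outside the rule. Of the 217 genes higher in both, 14 were higher in old cortex (6.45%) and 12 lower (5.53%), beside 2.32% and 1.31% of all genes, and the median difference was 0.02. C4b, at 0.98, and Cfb, at 0.94, were higher in old cortex on the log2 scale, as were Oas2 (0.91) and Ifi27l2a (0.80). Cfb was not well above background at 4 months, so its value includes a level at background. Col3a1 (−1.07) and Mfap5 (−0.89) were lower. Of the 80 genes lower in both, 14 were higher in old cortex (17.5%) and 4 lower.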

How the data were processed

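Gene expression in the hippocampus of 8 mouse models and in the cortex of 4 ages was measured on 12 one-colour Agilent arrays, 1 per model, with RNA of 3 animals pooled on each. The authors deposited the scanner intensity of every spot, unnormalized, with background and flags, and a matrix of processed intensity values, here used only as an alternative because its scaling differs between arrays. The labels name Cy5, but the files hold green-channel columns. Spots marked as outliers (110 to 234 per array) were left out, and log2 of the deposited processed signal was averaged per probe and quantile normalized over 12 arrays. Accessions gave symbols for 69.8% of 39429 probes through RefSeq (GRCm38.p6), and several probes stood for 5512 of the 20886 genes and were averaged as log2 values. A gene was well above background where 1 of its probes was.

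The 519 genes and all lists were chosen with earlier results of these data known. Named were the first 14 genes higher in both, the first 8 lower in both, and the first 6 of each opposite kind, by the smallest of 4 single-array gaps, and members of the lists. Predicted genes and olfactory, vomeronasal, and taste receptors were not ranked. Some genes that the rule covers are left out of the text and plots. Genes at the threshold, serpins, collagens, and genes given for old cortex were chosen after their values were seen.

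With 1 array per model no test was run. The scripts were tested on simulated data. Alternatives were scaling to the 75th percentile, normexp with an offset of 50 on the median foreground and background (no mean signal is in the files), the matrix, filters, thresholds, and other references. Python 3.11.15 (numpy 2.4.6, pandas 2.3.3, matplotlib 3.10.9) and R 4.3.3 with limma 3.58.1 were used.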

Additional observations from a re-analysis of the deposited data

Results flagged for a closer look

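The 12 genes ranked first among those that went opposite ways are given here. In each, every array of one comparison moved one way and every array of the other the opposite way, which follows from the ranking. The same held for 139 of the 150 genes higher in 5xFAD and lower with Aβ and for 67 of the 72 of the reverse kind. With streptozotocin in place of scopolamine the injection difference changed sign for Skint11, Slc37a2, and Spink8. The transgene difference exceeded the injection difference by 3.94 for Gpr183, 4.40 for Skint11, 3.35 for Bcas1os2, 3.30 for H2al2a, 3.79 for H2-Oa, and 2.71 for Slc37a2 on the log2 scale. It lay below it for the other 6 genes, by −3.73 for Spink8, −2.95 for Ccn2, −2.00 for Cldn5, −6.61 for Dab2, −3.49 for Il13ra2, and −1.98 for Stk32b. Levels not well above background enter these values for Skint11, Bcas1os2, H2al2a, H2-Oa, Dab2, and Stk32b. With 1 array per model, these differences were not tested.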

How the results depend on the processing

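With 1 array per model, no value here has an error, and values near 1.5-fold or near background are the least certain. No paired analysis was possible because each group had 1 array. The numbers of genes higher in both, lower in both, higher in 5xFAD and lower with Aβ, and the reverse were 217, 80, 150, and 72. Counts below follow that order. With normexp they were 88, 17, 21, and 14, without the filter on background 360, 177, 232, and 183, at 2-fold 77, 20, 35, and 7, and with every single-array gap at least 1.5-fold 127, 36, 68, and 33. With the matrix the last 3 kinds came to 42, 61, and 136. Of the 217 genes 83 were found again with normexp and 194 with the matrix. When all 6 arrays had to be well above background, the second and the third kind came to 47 and 72. With 5 µM Aβ alone the last kind had 110 genes, and with streptozotocin in place of scopolamine the first had 451 (181 of them among the 217) and the third 79. Injection calls were 695 higher and 642 lower, against 1295 and 375 with the matrix, 327 and 148 with normexp, 596 and 278 with the filter on all 6 arrays, and 1161 and 388 with streptozotocin as reference. The 75th percentile moved the median transgene difference of all genes to −0.12, and the matrix moved the median injection difference to 0.14.

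Of genes higher in both, those higher and lower in old cortex were 3 and 2 with normexp and 9 and 7 with the matrix. Those higher and lower with streptozotocin than with scopolamine, 16 and 32 as reported, were 4 and 12 with normexp and 60 and 13 with the matrix. For genes lower in both the 4 counts with normexp were 6, 1, 0, and 17, and the last pair was 12 and 20 with the matrix, with 2 and 42 as reported. In settings chosen after the data were seen, genes higher in both that were higher at 3 than at 2.5 mg/kg streptozotocin were 47 with normexp and 60 with the matrix (21.7% and 27.6%, beside 1.42% and 2.56% of all genes), and those higher on NCSTN than on MAPT were 11 with normexp and 22 with the 75th percentile.

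Of 1697 values of the 100 named genes, 1542 kept direction and side of the threshold, 136 fell short of it (64 with normexp), and 19 changed sign. These were Grik3 with the matrix (1.52), Xaf1 with its brighter probe (−0.32), Trh without NCSTN (0.58), Col3a1 and Cfb without MAPT (−0.068 and −0.078), and H2-DMb1 with 10 µM Aβ alone (0.056). With streptozotocin in place of scopolamine the injection difference was 0.020 for Skint11, 1.72 for Slc37a2, 0.039 for C3, 0.12 for Ccl19, 0.84 for C3ar1, 0.63 for Sgk1, 5.52 for Steap1, 1.09 for Gbp4, 1.46 for H2-DMb1, −0.10 for Spink8, 0.019 for Hyal3, 0.18 for Serpinb6d, and 1.90 for Dlk1. The cause of these changes was not tested.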

Other observations

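Lysozyme genes were outside the lists. Both Lyz1 and Lyz2, secreted by phagocytes, were higher in both differences and are similar enough that a probe may read both. Lyz1 was 9.11-fold and 2.12-fold higher, and Lyz2 was at 5.88, 5.55, and 8.75 on NCSTN, MAPT, and 5xFAD and at 5.65, 6.94, and 6.36 with scopolamine and the Aβ doses. The laminin chains Lama1 (2.29-fold and 2.76-fold) and Lamb2 (1.58-fold and 1.68-fold), parts of basement membrane, were the 2 of 11 laminin genes that were higher in both. Steap1, a choroid plexus marker, was at 8.81, 8.51, and 9.71 on NCSTN, MAPT, and 5xFAD, at 10.36, 9.58, and 9.76 with scopolamine and the Aβ doses, and not well above background with streptozotocin. The lysozyme and laminin genes were chosen after their values were seen.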
